A study of Rattus norvegicus with 10 samples.

Results

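Cadherins and protocadherins were compared between the hippocampus of epileptic rats and that of sham-operated rats. The group held every row of the count matrix whose transcript identifier belongs to a rat gene with a symbol made of Cdh and a number, or starting with Cdhr or Pcdh, with at least 46 counts summed over all libraries. Of 83 such symbols in the reference, 58 had a row, each of them 1 row, and 54 passed the minimum, out of 22447 features tested. The 4 below it were Cdh1 (43 counts in all) and Cdh16, Cdh17 and Cdh26 (2 counts each). Symbols with no row, among them Cdh12, Cdh18 and Pcdh10, were not analysed here. Of the members, 27 were clustered protocadherins (1 Pcdha, 12 Pcdhb and 14 Pcdhg genes), whose transcripts are close copies or share exons, so reads can be divided between their rows in ways the sources used here do not describe. The other 27 were 3 type I, 10 type II and 4 atypical cadherins and 3 delta-1, 4 delta-2 and 3 other protocadherins.

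All rats were male Sprague-Dawley, an outbred strain, and carried electrodes in the left lateral amygdala. In 5 of them (rats 6 to 10, stimulated) pulses of 400 µA at 60 Hz, given over 30 min, induced status epilepticus, a long seizure that was then ended with diazepam, and the methods describe spontaneous seizures later on. The other 5, matched for age (rats 1 to 5, sham), received no current. Polyadenylated RNA was read 3 months after stimulation from hippocampal tissue with the CA3 field and the dentate gyrus, 1 library for each animal, so the spread given below is that between animals. The model is defined by the seizure it evokes, and which cells of the tissue responded cannot be read from these bulk libraries.

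Classical cadherins are calcium-dependent adhesion molecules that bind the same or a related cadherin on the neighbouring cell, and catenins tie their tails to the actin cytoskeleton. Type II cadherins are expressed in different combinations by different neurons, and in the hippocampus several of them take part in the matching of mossy fibre and CA3 synapses. Protocadherins lack the catenin-binding tail. The clustered ones are chosen promoter by promoter in each neuron and give it a surface identity, and the non-clustered ones act in cell sorting, axon growth and synapse turnover.

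Aligned counts lay between 13552309 and 24086059 per rat, so that 3 counts, taken as the detection floor, were worth 0.124 to 0.229 CPM (counts scaled to library size, adjusted by the trimmed mean of M values). The unaligned share lay between 32.01 and 45.14%, and the 3 highest shares were those of stimulated rats 8, 9 and 10. The biological coefficient of variation over all features was 21.2%. Of the markers tested for dentate granule cells (6 of 8 listed) and CA3 pyramidal cells (4 of 6), Lct alone was at 0 in a rat. Their summed CPM was 287.3 to 365.9 and 294.2 to 325 in sham rats, and 269.4 to 443.8 and 284.7 to 386.4 in stimulated rats. For CA1 markers the sum was 110 in rat 10 and 366.1 in rat 6 (sham 185.8 to 305.5). It was 2252 in rat 7 for oligodendrocyte markers (sham 2791 to 3992). Meningeal and fibroblast markers reached 117.2 in rat 8 (sham 40.91 to 58.75). Stimulated rats differed more among themselves than sham rats did: the summed CPM of 11 immediate early genes, which neurons switch on within minutes of activity, was 154.3 to 196.9 in sham rats, 208 and 143.5 in rats 6 and 8, and 764.8, 1754 and 719 in rats 7, 9 and 10. The summed CPM of 9 astrocyte markers was 3569 to 4049 in sham rats and was highest in rats 7 (8865) and 10 (7746), where Gfap made most of the difference (1327 to 1926 in sham rats, 6467 in rat 7 and 5394 in rat 10). Markers of the same list did not move together: Aqp4 was above all sham rats in every stimulated rat, whereas Aldh1l1 was at 16.4 CPM in rat 7 and 29.25 in rat 10, below the sham range of 40.5 to 50.9, and Gjb6, at 15.1 CPM, and Gja1, at 271 CPM, were below all sham rats in rat 7.

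The sequences before the start sites of 2 genes are shown first, because these genes had the largest fold changes in each direction: Pcdh8, an activity-induced delta-2 protocadherin, and Cdhr1, a cadherin-related protein best known from photoreceptors. Each stretch is 120 bases that end just before the RefSeq start site, on the minus strand of GRCr8, at chr15:61612091-61612210 for Pcdh8 and chr16:12883580-12883699 for Cdhr1. Capitals mark TATAAA and CCAAT, the latter read here on the opposite strand as ATTGG.
Pcdh8: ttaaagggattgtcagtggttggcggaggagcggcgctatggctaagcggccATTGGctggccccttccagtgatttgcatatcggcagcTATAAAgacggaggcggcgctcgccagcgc
Cdhr1: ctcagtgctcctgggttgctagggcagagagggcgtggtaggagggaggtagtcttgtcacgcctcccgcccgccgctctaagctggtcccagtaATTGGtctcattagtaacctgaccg

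In Pcdh8 a TATAAA begins 30 bases before the start site and the CCAAT match 68 bases before it, while in Cdhr1 the CCAAT match lies 25 bases before it and TATAAA was not found. RefSeq held the promoter, 250 bases before to 50 after the start, of 46 of the 54 members. TATAAA stood in 8 of these 46 (17.4%, against 14.2% of all 33469 promoters in the table) and CCAAT in 25 (54.3%, against 37.5%), both strands counted. The cyclic AMP element TGACGTCA was in 0 member promoters (1.83% of all), the AP-1 site TGANTCA in 1 (2.17%, against 7.33%) and the E-box CANNTG in 30 (65.2%, against 72.1%). These matches describe letters in a window and not sites in use.

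It was asked which members differed between stimulated and sham rats. In edgeR's quasi-likelihood test, 0 of the 54 members had an adjusted p-value under 0.05, as was the case for 0 of all 22447 features (0%). At an unadjusted p-value under 0.05, 10 members were higher in stimulated rats (18.5%, where the share over all features was 6.7%) and 3 were lower (5.56%, against 3.16%). Of the 10, 4 were Pcdhb genes. The count was 5 without rat 10, a fit for which the share over all features is not given here. At the stricter limit of 0.001 for the unadjusted p-value in the same test, 0 members were higher (0.156% of all features) and 1, Cdhr1, was lower (0.0178%). The likelihood ratio test, the exact test and DESeq2's Wald test each gave an adjusted p-value under 0.05 to 1 member, again Cdhr1, where they called 0.53%, 0.396% and 0.152% of all features. In the same order, the unadjusted p-values of Cdh9 were 0.000497, 0.000497 and 0.000411, under the stricter limit. Those of Pcdh8 were 0.000899, 0.000984 and 0.00743. The study, which used the limit of 0.001 with edgeR, listed Cdh9 as upregulated. It also listed Cdhr1, under the older name Pcdh21, as downregulated. Both had adjusted p-values under 0.05 in its edgeR test.

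The median log2 fold change over the members was 0.09, beside 0.01 over all features, and 36 members (66.7%) were on the higher side, beside 52.2% of all features. The values did not overlap between the groups for 4 members: Cdh2, Pcdhb9 and Pcdhga2 were higher in every stimulated rat (0.695% of all features) and Cdhr1 was lower in every one (0.597%). The SD of log2 CPM was larger in stimulated than in sham rats for 37 members (68.5%), a share close to that of all features (69.5%). The exact permutation test, run on each single gene, gave p-values under 0.05 to 8 of the 13 members that had an unadjusted p-value under 0.05 in edgeR. These 13 were picked on the same values, so the count is no separate support. The exact permutation p-values of the 8 were 0.00794 for Cdhr1 and Pcdhb9, the smallest that 5 rats against 5 allow, and 0.0159 for Cdh9. They were 0.0317 for Pcdhb8 and Pcdhb6, 0.0397 for Pcdh12 and Pcdhb10, and 0.0476 for Cdh10. The exact permutation p-values of the other 5 were 0.0635 for Cdh5, 0.0952 for Pcdhb5, 0.111 for Cdh22, 0.167 for Pcdh8 and 0.238 for Cdh23. Cdh2 and Pcdhga2, not among the 13, had 0.00794 in this test as well. For groups without overlap this value only restates the lack of overlap. A bulk library cannot tell fewer cells of a type from less RNA in each cell, and this holds for all values below.

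**Figure D1:**
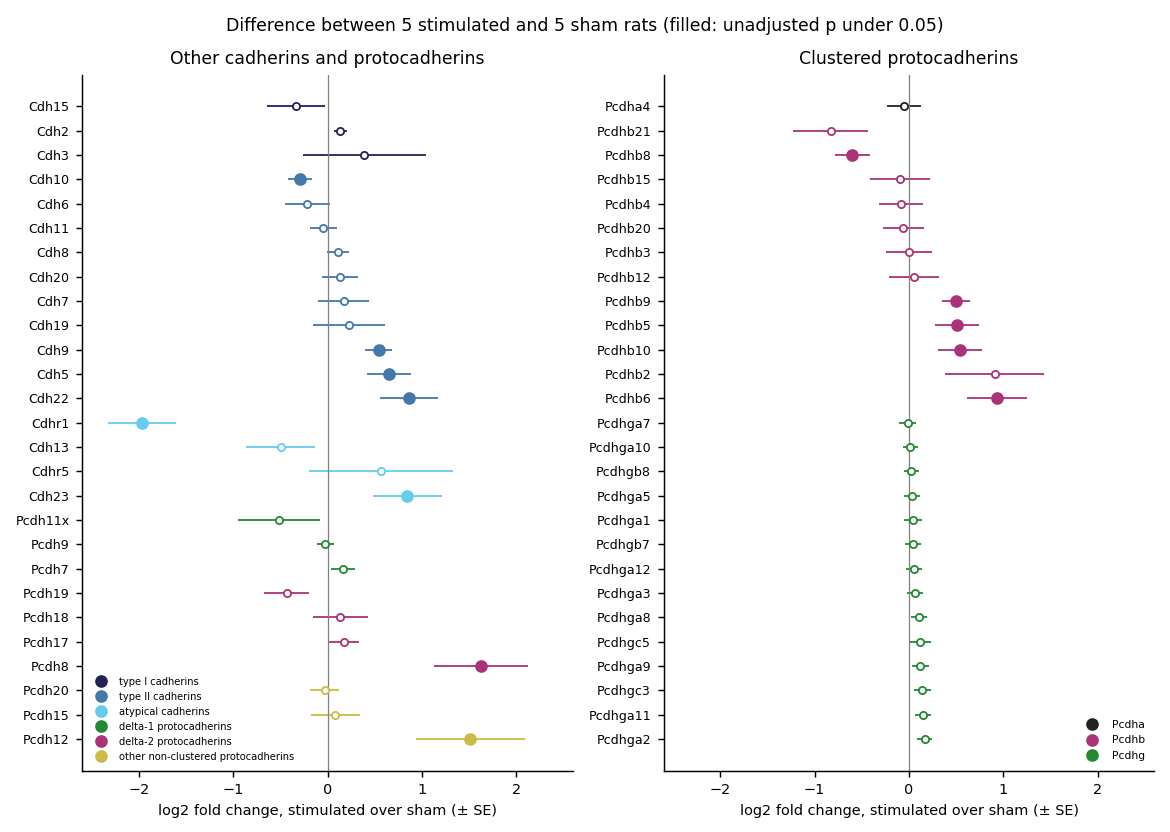
Log2 fold change of each of the 54 genes (x axis, stimulated over sham, 5 rats each, with its SE), grouped by sub-family on the y axis; filled points have an unadjusted p-value under 0.05. Cdhr1 (-1.97) and Pcdh8 (1.62) lie farthest out on either side, Pcdhb genes spread to both sides of 0, and the 14 Pcdhg genes stay between -0.01 and 0.17.

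Of the 3 type I cadherins, none reached an unadjusted p-value under 0.05. Cdh2, or N-cadherin, holds excitatory synapses together. Its CPM in sham rats 1 to 5 was 157.9, 154.1, 164.6, 158.8 and 154.0. In stimulated rats 6 to 10 it was 165.0, 178.9, 166.6, 184.1 and 172.0. No stimulated rat was as low as any sham rat, though the margin was small in rats 6 and 8, and the groups overlapped when DESeq2's size factors replaced the trimmed means. Stimulated over sham, the log2 fold change was 0.13 (SE 0.0682, unadjusted p = 0.0691, adjusted p = 0.538). Cdh3, or P-cadherin, was near the detection floor with 0 to 0.922 CPM in sham and 0.186 to 1.09 in stimulated rats. Cdh15, known from muscle, was at 5.04 to 7.68 and 1.625 to 7.60 CPM, with its lowest value in rat 7. Cdh1, or E-cadherin, which was too low to be tested, had 0 to 4 counts in each sham rat and 2 to 12 in each stimulated rat.

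Among the 10 type II cadherins 3 were higher (Cdh9, Cdh22 and Cdh5) and 1 was lower (Cdh10) at an unadjusted p-value under 0.05 (6.7 and 3.16% over all features). Cdh9 (NM_001168630) guides the formation of synapses between dentate granule cells and CA3 neurons. It was at 39.6, 42.2, 41.2, 42.15 and 46.96 CPM in the sham rats, 42.4 ± 2.75 (SD, n = 5). In the stimulated rats it was at 52.9, 77.7, 56.3, 45.5 and 76.2 CPM, 61.7 ± 14.45 (SD, n = 5). Rats 7 and 10 were highest, and rat 9 alone fell within the sham range. On the log2 scale the difference was 0.54 (SE 0.141, unadjusted p = 0.00185, adjusted p = 0.376), and leaving out any 1 rat gave 0.44 to 0.62. The study had chosen both Cdh9 and Cdhr1 on measurements of these rats, so their directions are no independent evidence.

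Cdh10 belongs to the same branch of the type II cadherins as Cdh6 and Cdh9 and was on the other side. It was at 19.4, 24.8, 27.8, 25.3 and 22.7 CPM in sham rats and at 24.4, 19.3, 18.1, 17.5 and 18.3 CPM in stimulated rats. Rats 7 to 10 were below all sham rats and rat 6 was well within them. The log2 fold change was -0.30 (SE 0.126, unadjusted p = 0.0337, adjusted p = 0.46). The unadjusted p-value passed 0.05 when any of 6 rats was left out (rats 2, 3, 4, 8, 9 or 10), with the largest, 0.0924, without rat 3, and was 0.0676 with library size alone as the scale.

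Cdh22, a type II cadherin of brain and pituitary, was at 19.65, 29.2, 28.8, 39.2 and 20.65 CPM in sham rats. It was at 25.0, 71.1, 29.1, 41.9 and 82.2 CPM in stimulated rats. Values of rats 7 and 10 were far above the sham range, rat 9 was just above it, and rats 6 and 8 were inside it. Stimulated over sham, the log2 fold change was 0.86 (SE 0.306, unadjusted p = 0.0143, adjusted p = 0.415) and 0.60 without rat 10 (unadjusted p = 0.0539). The same rats had the highest Gfap and the lowest Aldh1l1, and the part of either in this difference was not tested.

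Cdh5, or VE-cadherin, forms the junctions between endothelial cells of vessels. Its CPM was 7.56, 3.97, 4.90, 6.36 and 6.58 in sham rats. It was 7.42, 10.4, 8.36, 5.86 and 14.2 in stimulated rats. Rat 10 was highest, rats 7 and 8 were also above the sham range, and rats 6 and 9 were within it. On the log2 scale the difference was 0.65 (SE 0.237, unadjusted p = 0.0163, adjusted p = 0.418), and 0.44 without rat 10 (unadjusted p = 0.0595).

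Pcdh12 is a protocadherin of endothelial cells as well. It was at 0.930, 0, 0.707, 1.03 and 0.796 CPM in sham rats, where rat 2 had 0 counts, and at 1.22, 1.72, 1.79, 0.714 and 4.90 CPM in stimulated rats, where rat 10 had 95 counts. All stimulated rats but rat 9 were above the sham range. The log2 fold change was 1.51 (SE 0.576, unadjusted p = 0.0203, adjusted p = 0.427). It was 0.91 without rat 10 (unadjusted p = 0.11). The summed CPM of 11 other endothelial markers was 235.6 to 254.4 in sham and 221.3 to 453.9 in stimulated rats, and it too was highest in rat 10. Its lowest value, 221.3, was that of rat 7, where Cdh5 and Pcdh12 were above the sham range. The sum thus did not follow these genes in every rat. Of these 11 markers, tested out of 12 listed, 5 were higher and 0 were lower at an unadjusted p-value under 0.05. The shares over all features were 6.7 and 3.16%. None of the 11 was at 0 in any rat. Whether more endothelial RNA was sampled in rat 10 was not tested.

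The other 6 type II cadherins had unadjusted p-values over 0.05. Cdh8, a synaptic cadherin of hippocampal neurons, was at 32.2 to 41.8 CPM in sham and 33.5 to 49.2 in stimulated rats (log2 fold change 0.11, SE 0.114). Cdh11 was at 33.5 to 54.9 and 33.6 to 50.5 CPM (log2 fold change -0.05, SE 0.141). Cdh6, Cdh7, Cdh19 and Cdh20 had log2 fold changes of -0.22, 0.17, 0.23 and 0.13. In Cdh20 the sham rats were close together (10.0 to 11.8 CPM) and the stimulated rats wide apart (6.31 to 14.75 CPM), with rat 7 below all sham rats and rats 6, 8 and 10 above them.

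**Figure D2:**
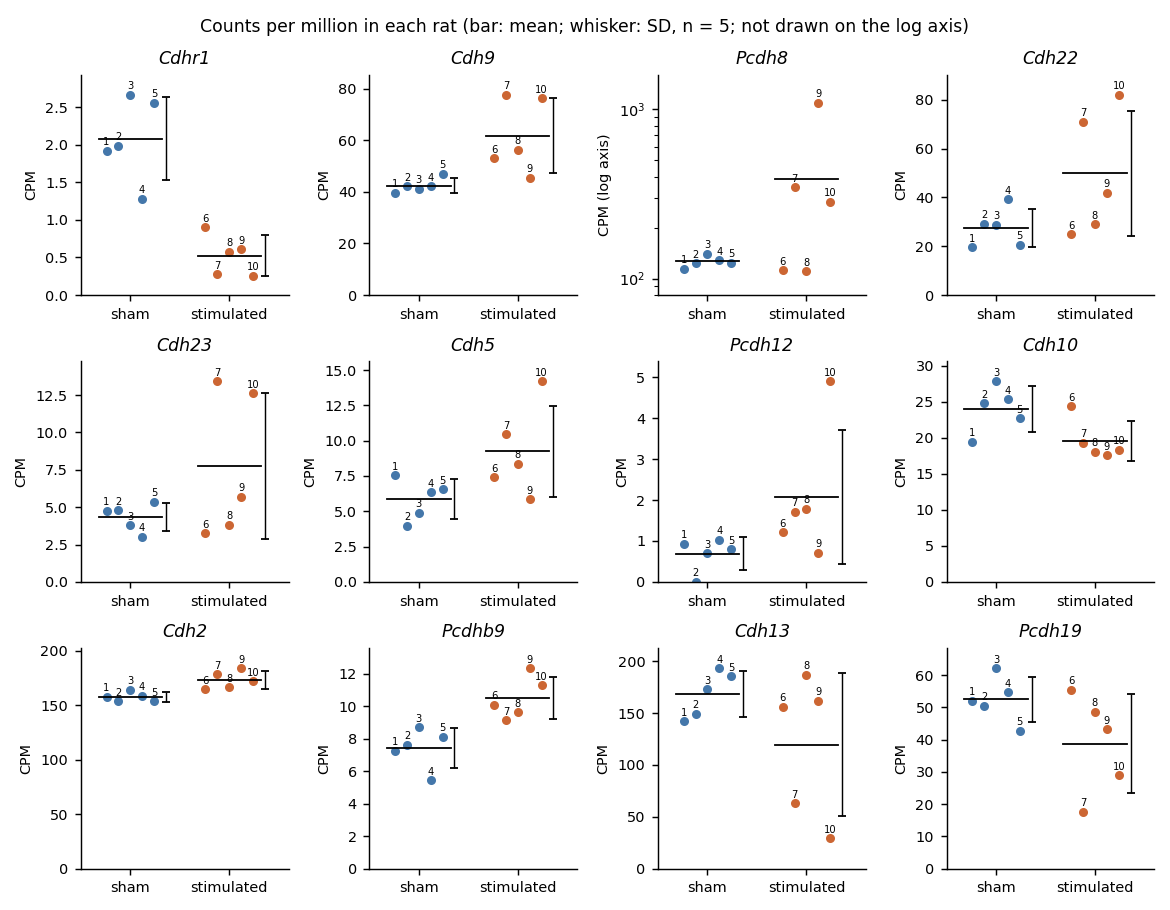
CPM (y axis) of 12 genes in sham rats 1 to 5 and stimulated rats 6 to 10 (x axis), each point a rat with its number, with the mean as a bar and the SD as a whisker (n = 5 each), except for Pcdh8, which has a log axis and no whisker. Cdhr1, Cdh2 and Pcdhb9 do not overlap between groups, whereas Pcdh8, Cdh22 and Cdh23 are high in rats 7 and 10 (Pcdh8 in rat 9 as well) and near the sham values in rats 6 and 8.

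Of the 4 atypical cadherins, Cdhr1 was lower and Cdh23 higher at an unadjusted p-value under 0.05. Cdhr1 (NM_053572) was at 1.92, 1.98, 2.67, 1.28 and 2.56 CPM in sham rats, from 33, 26, 49, 31 and 61 counts. In stimulated rats it was at 0.905, 0.279, 0.5745, 0.612 and 0.258 CPM, from 20, 6, 9, 12 and 5 counts. All stimulated rats lay below all sham rats, and rats 7 and 10 were lowest. The mean was 2.08 ± 0.557 CPM (SD, n = 5) for sham and 0.526 ± 0.268 CPM (SD, n = 5) for stimulated rats. Stimulated over sham, the log2 fold change was -1.97 (SE 0.362, unadjusted p = 9.48e-05), with an adjusted p-value of 0.376 in the quasi-likelihood test, 0.00115 in the likelihood ratio test, 0.00158 in the exact test of edgeR and 0.00384 in DESeq2. Every count of a stimulated rat was above the floor of 3, and leaving out any 1 rat gave log2 fold changes of -2.29 to -1.80.

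Cdh23 links the stereocilia of hair cells together with Pcdh15. It was at 4.77, 4.81, 3.81, 3.02 and 5.36 CPM in sham rats and at 3.26, 13.4, 3.83, 5.71 and 12.6 CPM in stimulated rats. More was counted in rats 7 and 10 than in any other rat, rat 9 was just above the sham range and rats 6 and 8 were inside it. On the log2 scale the difference was 0.84 (SE 0.366, unadjusted p = 0.0378, adjusted p = 0.472). Without rat 7 the log2 fold change was 0.55 (unadjusted p = 0.13), without rat 10 it was 0.60 (unadjusted p = 0.123), and in limma-voom it was 0.65 (unadjusted p = 0.12). Without any one of sham rats 1 to 4 the unadjusted p-value lay between 0.0542 and 0.0879. Its partner Pcdh15 was at 1.90 to 4.94 and 2.32 to 4.75 CPM (log2 fold change 0.08, SE 0.263).

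Cdh13, or T-cadherin, is held in the membrane by a lipid anchor and has no tail inside the cell. It was at 142.1, 149.5, 173.2, 193.1 and 185.5 CPM in sham rats. It was at 156.2, 63.1, 187.0, 161.7 and 29.5 CPM in stimulated rats. Again rats 7 and 10 stood apart, far below the sham range, and the other 3 were inside it. With means of 168.7 ± 22.2 CPM (SD, n = 5) for sham and 119.5 ± 68.85 CPM (SD, n = 5) for stimulated rats, the difference was not larger than this spread (log2 fold change -0.50, SE 0.363, unadjusted p = 0.191). Cdhr5 was close to the floor, at 0 to 0.640 and 0.128 to 1.44 CPM.

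Among the delta-2 protocadherins Pcdh8 had the highest log2 fold change of all members. Pcdh8 (NM_022868), known as arcadlin, is produced after synaptic activity and removes N-cadherin from the synaptic membrane. It was at 114.6, 123.7, 140.6, 128.5 and 123.9 CPM in sham rats, 126.3 ± 9.48 (SD, n = 5). It was at 111.8, 346.6, 110.8, 1090 and 284.6 CPM in stimulated rats, 388.8 ± 406 (SD, n = 5). Stimulated rats 7, 9 and 10 were far above the highest sham value, and rats 6 and 8 were just below the lowest. The log2 fold change was 1.62 (SE 0.498, unadjusted p = 0.00589, adjusted p = 0.396), and 0.74 without rat 9 (unadjusted p = 0.0225).

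The same 3 rats had the highest sums of immediate early genes. Arc, an activity-regulated synaptic gene, was at 40.9 to 59.1 CPM in sham rats and at 68.25, 188.1, 44.4, 1117 and 207.7 CPM in rats 6 to 10. Fos was at 3.26 to 5.32 CPM in sham rats and at 5.61, 106.3, 5.23, 50.3 and 61.7 CPM in rats 6 to 10. Pcdh8 and Arc had their highest value in rat 9, whereas Fos had it in rat 7. Of the 11 immediate early genes, 10 were higher at an unadjusted p-value under 0.05 (6.7% over all features). Npas4, at 0 in at least 1 rat, had another pattern than Pcdh8. It was at 0 to 1.13 CPM in sham rats and at 1.31, 0.371, 0.702, 1.22 and 11.9 CPM in rats 6 to 10. The part that neuronal activity, as read from these genes, had in the Pcdh8 difference was not tested.

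**Figure D3:**
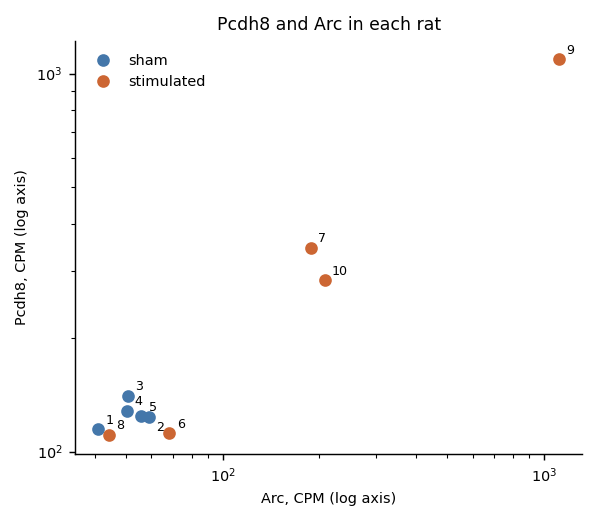
Pcdh8 (y axis) against Arc (x axis), both in CPM on log axes, with 1 point for each rat and its number. The 5 sham rats and stimulated rats 6 and 8 lie together at 110.8 to 140.6 CPM of Pcdh8, and stimulated rats 7, 10 and 9 lie apart with more of both, up to 1090 CPM of Pcdh8 and 1117 CPM of Arc in rat 9.

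The other 3 delta-2 protocadherins had unadjusted p-values over 0.05. Pcdh19, mutated in an epilepsy that affects mainly girls, was at 52.1, 50.5, 62.1, 54.8 and 42.8 CPM in sham and at 55.4, 17.7, 48.6, 43.2 and 28.9 CPM in stimulated rats. Rats 7 and 10 were below all sham rats, and the other 3 were within their range. Stimulated over sham, the log2 fold change was -0.44 (SE 0.237, unadjusted p = 0.0875, adjusted p = 0.559). Pcdh17, which acts in axon growth and presynaptic assembly, was at 44.1 to 53.9 CPM in sham rats and at 46.8 to 52.5 in all stimulated rats but rat 9, which had 89.8. Pcdh18 was at 2.69 to 4.94 and 2.135 to 6.603 CPM.

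None of the 3 delta-1 protocadherins reached an unadjusted p-value under 0.05. Pcdh9 was at 80.5 to 100.4 CPM in sham and 79.3 to 92.1 in stimulated rats (log2 fold change -0.02, SE 0.0875). Pcdh7 was at 17.0 to 23.6 and 19.6 to 28.55 CPM (log2 fold change 0.17, SE 0.127). Pcdh11x was at 0.349 to 1.22 and 0.255 to 0.769 CPM. Pcdh20, grouped with the other protocadherins, was at 59.1 to 94.2 and 54.5 to 94.5 CPM (log2 fold change -0.03, SE 0.154).

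**Figure D4:**
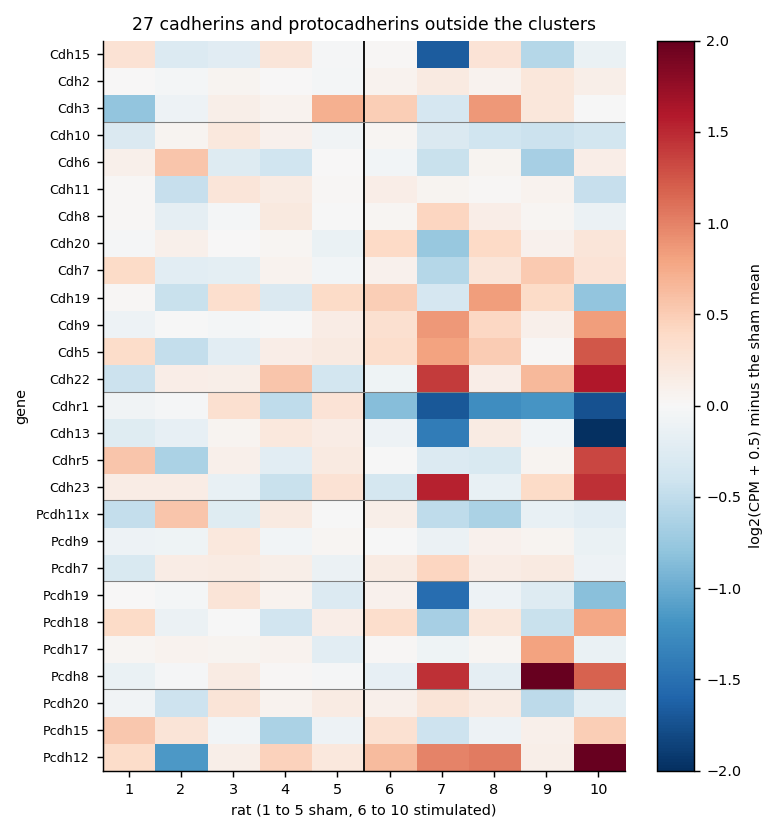
Each of the 27 genes outside the clusters (y axis) in each rat (x axis, 1 to 5 sham, 6 to 10 stimulated), coloured by log2(CPM + 0.5) minus the sham mean, with colours ending at -2 and 2. Rats 7 and 10 share high Cdh9, Cdh22 and Cdh23 and low Cdh13 and Pcdh19, and rat 9 stands out by Pcdh8 and Pcdh17.

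Single rats were unequal in how many members they placed outside the sham range. Of the 54 members, 11, 21, 10, 25 and 25 were above all 5 sham rats in rats 6 to 10. In the same order, 16.0, 28.8, 17.7, 25.6 and 25.6% of all features were above all sham rats, compared with 20.4, 38.9, 18.5, 46.3 and 46.3% of members. Below all sham rats were 12, 11, 6, 9 and 8 members (22.2, 20.4, 11.1, 16.7 and 14.8%, beside 14.2, 26.8, 17.6, 23.7 and 24.1% of all features). Members were thus above the sham range more often in rats 7, 9 and 10 than in rats 6 and 8, as features in general were. These counts include clustered rows, which are not separate measurements. Of the 27 genes outside the clusters, 6, 10, 7, 8 and 10 were above and 2, 11, 4, 6 and 6 below all sham rats in rats 6 to 10.

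The clustered protocadherins fell into separate patterns, each with the limit that reads may be shared between rows. Pcdhb genes are single-exon genes whose rows had mean values of 0.688 to 8.97 CPM. Of the 12, 4 were higher and 1 was lower at an unadjusted p-value under 0.05 (6.7 and 3.16% over all features), and 6 were on either side of 0. Pcdhb9, the one with the highest mean, was at 7.27, 7.63, 8.705, 5.455 and 8.13 CPM in sham and at 10.1, 9.14, 9.64, 12.3 and 11.3 CPM in stimulated rats. The groups did not overlap. On the log2 scale the difference was 0.50 (SE 0.151, unadjusted p = 0.00536, adjusted p = 0.396).

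Pcdhb8 was lower. It was at 2.85, 4.65, 4.08, 4.75 and 4.27 CPM in sham and at 2.22, 3.06, 3.00, 2.40 and 2.94 CPM in stimulated rats. Sham rat 1 overlapped with the stimulated rats and the other 4 sham rats were above them. The log2 fold change was -0.60 (SE 0.189, unadjusted p = 0.00703, adjusted p = 0.396).

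Pcdhb6 was at 3.02, 1.07, 1.31, 0.868 and 1.34 CPM in sham and at 2.985, 2.09, 2.43, 3.93 and 3.04 CPM in stimulated rats. Sham rat 1 again lay among the stimulated rats and the other sham rats were below all of them. Stimulated over sham, the log2 fold change was 0.93 (SE 0.321, unadjusted p = 0.0117, adjusted p = 0.411). Across rats Pcdhb6 largely ran opposite to Pcdhb8, sham rat 1 included, so their calls need not be separate results. Whether reads were exchanged between these rows was not tested. Pcdhb10 and Pcdhb5 had log2 fold changes of 0.54 (SE 0.235, unadjusted p = 0.0371) and 0.51 (SE 0.232, unadjusted p = 0.0471), and their ranges overlapped between the groups. The unadjusted p-value of Pcdhb10 passed 0.05 without rat 2, 4, 5, 6, 7 or 10 (largest 0.108, without rat 6), and that of Pcdhb5 without the same rats (largest 0.142, without rat 10) and with upper quartile scaling (0.0579).

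The 14 Pcdhg rows, by contrast, lay close to 0. Their log2 fold changes ran from -0.01 to 0.17 with a median of 0.06, and 13 of 14 were above 0 with 0 at an unadjusted p-value under 0.05. Pcdhga2 had the largest of them. It was at 81.9, 76.45, 81.0, 84.7 and 80.2 CPM in sham and at 87.9, 85.8, 86.75, 103.5 and 89.65 CPM in stimulated rats. No overlap was left between the groups, with rat 7 closest to the sham rats and rat 9 farthest, but they did overlap with upper quartile scaling. On the log2 scale the difference was 0.17 (SE 0.0796, unadjusted p = 0.0559, adjusted p = 0.518).

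Pcdhgc3, the Pcdhg gene with the highest mean, had a log2 fold change of 0.14 (SE 0.0933) and was highest in rat 9, at 240.2 CPM. The SD of log2 CPM was larger in stimulated rats for 14 of 14 Pcdhg rows. The 12 Pcdhga and Pcdhgb rows had mean values of 74.7 to 93.0 CPM, and 10 of the 12 were highest in rat 9. The correlation of log2 CPM between pairs of these rows over the 10 rats had a median of 0.72 (0.41 to 0.95). Between Pcdhb rows it was 0.15 (-0.95 to 0.86). The Pcdhg rows share the constant exons of their cluster, so the 14 values are not 14 measurements. Pcdha4, the only Pcdha gene analysed, was at 7.02 to 10.1 and 5.43 to 11.2 CPM (log2 fold change -0.05, SE 0.184).

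**Figure D5:**
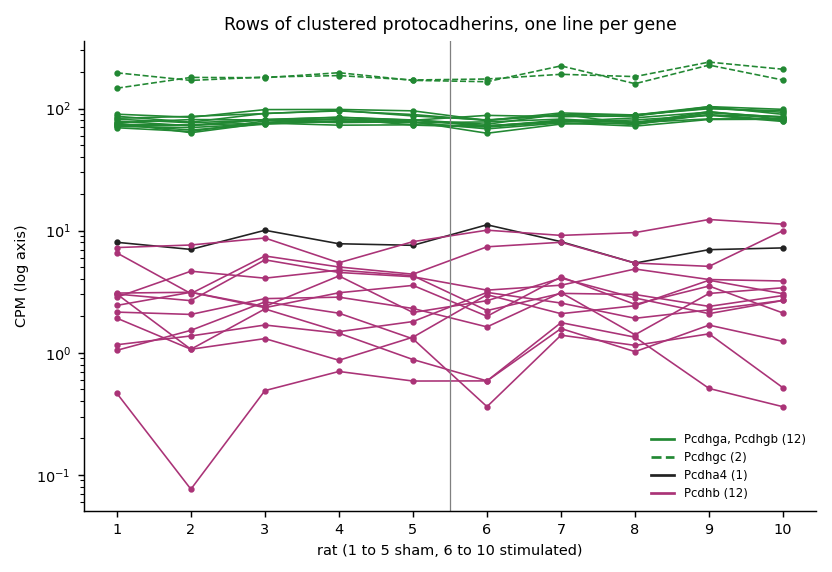
CPM (y axis, log scale) of each of the 27 clustered protocadherin genes in rats 1 to 5 (sham) and 6 to 10 (stimulated, right of the grey line); a line joins the values of 1 gene, and the order of rats within a group has no meaning. The Pcdhga and Pcdhgb rows form a narrow band of 62.8 to 103.7 CPM, and the Pcdhb rows are spread over 0.0763 to 12.3 CPM.

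Other genes of cadherin adhesion, in lists of 87 symbols of which 62 were tested, were read in the same fit. At an unadjusted p-value under 0.05, 7 of the 62 were higher and 1 was lower (6.7 and 3.16% over all features), and their median log2 fold change was 0.01. None had an adjusted p-value under 0.05. Of 12 catenins and plakophilins, which link cadherins to actin, Vcl was higher (0.59, SE 0.233) and Arvcf lower (-0.38, SE 0.159). Of 7 nectin and afadin genes 2 were higher, Pdlim5 and Sorbs2. Pdlim5, an actin-associated scaffold, was at 10.6, 7.40, 8.32, 8.265 and 7.04 CPM in sham and 10.8, 15.7, 9.26, 11.2 and 14.3 CPM in stimulated rats, with rat 8 alone inside the sham range. Its log2 fold change was 0.56 (SE 0.17, unadjusted p = 0.00552, adjusted p = 0.396).

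Among 10 other members of the superfamily, Ret, a growth factor receptor with cadherin-like repeats, was higher. It was at 5.35, 6.49, 7.73, 7.52 and 4.82 CPM in sham and 7.01, 28.8, 6.13, 12.0 and 15.2 CPM in stimulated rats. Rats 7, 9 and 10 were above the sham range and rats 6 and 8 inside it. Its log2 fold change was 1.12 (SE 0.353, unadjusted p = 0.00689, adjusted p = 0.396).

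Of 12 genes of cadherin processing and turnover, Furin, Mmp2 and Mmp9 were higher and none was lower at an unadjusted p-value under 0.05. Mmp9, a matrix protease that neurons release at active synapses, was at 0.1745, 0.992, 1.03, 1.32 and 1.05 CPM in sham rats. It was at 1.86, 20.4, 0.894, 17.5 and 56.8 CPM in stimulated rats. Rat 8 was within the sham range, rat 6 just above it and the other 3 far above. The test gave a log2 fold change of 4.38 (SE 0.915, unadjusted p = 0.000307, adjusted p = 0.376). The 13 partners of protocadherins inside the cell and the 8 regulators of the clusters (CTCF, cohesin and methyltransferases) had 0 genes at an unadjusted p-value under 0.05.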

How the data were processed

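The authors aligned single reads of 36 cycles with BWA to rn4 and, with their own script, made the deposited matrix of raw counts per RefSeq transcript. The methods name an Ensembl annotation, and how shared reads and strand were treated is not given in the sources used here. The methods also give fewer stimulated rats than the labels, and all 10 labelled libraries were used. Symbols and promoters came from RefSeq (GRCr8), used for names and sequence alone. Features with a summed count of 46 or more (30th percentile) were tested with edgeR 4.0.16 (R 4.3.3; TMM scaling, glmQLFit and glmQLFTest, Benjamini-Hochberg adjustment over all 22447 features), stimulated against sham with no covariate. Unless another test is named, p-values are from this test. It was also run on simulated counts, with known changes put into well-counted features and equal spread in both groups. That setting does not cover low counts, small changes or the unequal spread between the groups here. Alternatives used DESeq2 1.42.0, limma 3.58.1, other scalings and filters, and each rat left out. Single genes had a two-sided exact permutation test over 252 assignments on log2 CPM (prior count 2). Genes were named if they had an unadjusted p-value under 0.05 (pathway genes under 0.01), did not overlap between groups, had a known role in hippocampus or vessels, or had the highest mean of their cluster, and others are given in ranges. Genes named outside this rule (Cdh6, Cdh7, Cdh15, Cdh19, Cdh20, Cdhr5, Pcdh11x, Pcdh18, Vcl, Arvcf, Sorbs2, Furin and Mmp2) complete a list. The members, gene lists and markers were chosen with earlier results of these data known. No batch is given in the labels.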

Additional observations from a re-analysis of the deposited data

Results flagged for a closer look

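In 8 of 54 groups of 5 rats (the named genes in either group), 1 rat lay far from the others. Its gap to the nearest exceeded 0.71 of the range, Dixon's limit. For independent groups with normal spread, chance gives about 1 in 20, or 2.7. The named genes were partly picked on these same values and include rows that may share reads. The 2.7 is therefore a rough guide, and no excess over chance can be read from it. In stimulated rats, rat 9 was apart for Pcdh8 (1090 CPM, others 110.8 to 346.6, gap 0.759 of the range), Pcdh17 (89.8, others 46.8 to 52.5, 0.869) and Pcdhga2 (103.5, others 85.8 to 89.65, 0.784). Rat 10 was apart for Pcdh12 (4.90, others 0.714 to 1.79, 0.744) and, as the lowest, for Cdh11 (33.6, others 46.9 to 50.5, 0.787), and rat 6 for Cdh10 (24.4, others 17.5 to 19.3, 0.741). In sham rats, rat 5 was lowest for Pcdh17 (44.1, others 52.4 to 53.9, 0.849) and rat 1 highest for Pcdhb6 (3.02, others 0.868 to 1.34, 0.781). Causes of these single values were not tested.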

How the results depend on the processing

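Under the alternatives, 578 of 594 values of the 27 named genes kept their direction and their side of the adjusted threshold. All adjusted p-values of the main fit were 0.376 or more, so staying on that side was easy and says little about unadjusted calls. The unadjusted p-values of Cdh5, Cdh10, Cdh22, Cdh23, Pcdh12, Pcdhb5 and Pcdhb10 passed 0.05 under some alternatives. Cdhr1 passed the adjusted threshold in 3 other tests. The count of members at an adjusted p-value under 0.05 thus went from 0 to 1 in the likelihood ratio test, 1 in the exact test and 1 in DESeq2. It was 0 to 0 with each rat left out. At an unadjusted p-value under 0.05 the count of higher members was 10 of 54. It was 6 of 27 without clustered protocadherins (6.7% over all features in the main fit). With a rat left out it ranged from 5 (without rat 10) to 10. The shares over all features in the fits with a rat left out are not given here. A general change in calls therefore cannot be told from one of the members. The count of lower members was 3, with 5 in limma-voom and 2 to 4 with a rat left out. The median log2 fold change was 0.04 to 0.11 with a rat left out. Direction changed when a rat was left out for 6 genes whose changes are near 0: Cdh11 (-0.151 to 0.045), Pcdh15 (-0.076 to 0.252), Pcdh17 (-0.054 to 0.24), Pcdh20 (-0.129 to 0.06), Pcdh9 (-0.068 to 0.032) and Pcdha4 (-0.234 to 0.035). The causes were not tested. No paired analysis was possible because the labels give the groups no shared replicate numbers. Cdh3, Cdhr5 and several Pcdhb rows rest on few counts, where only large changes are detectable at this depth.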
